A study of Mus musculus with 12 samples.

Results

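Tnfaip3, Tnip1, Birc3, Traf1, Cyld and Zc3h12a encode proteins that limit or shape NF-kB signalling through ubiquitin or through destruction of messenger RNA. These 6 genes were listed by name, with no threshold on their values but with earlier results of these data known, out of 19938 genes with a measured probe set of their own symbol, and each had exactly 1 such probe set. Their RNA was measured in livers of male mice on Affymetrix GeneChip arrays, 1 array per liver, in 3 groups of 4. The first group were S534A mice given lipopolysaccharide (LPS) at 1 µg/kg. In these mice a knocked-in Rela allele, bred to homozygosity, gives alanine in place of the serine that the name S534A refers to, in the NF-kB subunit p65 of every tissue. Gene targeting was done in PTL1 embryonic stem cells, with 5 crosses to C57Bl6/J before the mice were interbred. The second group were wild-type (WT) mice of the same background given the same dose, and the third were untreated WT mice. With no untreated S534A livers analysed here, an effect of the genotype at baseline and an effect on the response cannot be told apart. Neither the ages nor the hours from LPS to tissue collection are stated in the labels.

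LPS, a cell wall component of Gram-negative bacteria, acts through Toll-like receptor 4 and, by way of the tumour necrosis factor it induces, through TNF receptors. Both routes assemble ubiquitin chains on receptor-proximal proteins, and these chains recruit the kinases that free NF-kB to enter the nucleus. A20, the product of Tnfaip3, edits and binds such chains and shuts the signal down, and ABIN-1, the product of Tnip1, binds chains and brings A20 to them. CYLD is a deubiquitinase that takes the chains apart. The product of Birc3, cIAP2, is a ubiquitin ligase that builds chains at the TNF receptor and, with TRAF2 and TRAF3, keeps the non-canonical NF-kB pathway off in resting cells. TRAF1 is an adaptor without ligase activity that binds TRAF2 and the cIAPs. Regnase-1, the product of Zc3h12a, is an endoribonuclease that degrades inflammatory transcripts. Several of these genes are themselves NF-kB targets, and those whose products limit the signal form a negative feedback.

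The values are log2 RMA values, so a difference of 1 is a doubling. Array medians were 6.15 to 6.32. Hepatocyte markers (Alb, Apoa1, Ttr, Cps1 and Fgb) averaged 13.66 to 13.72 per array in S534A LPS livers, 13.67 to 13.70 in WT LPS livers and 13.69 to 13.71 in untreated livers, near the top of the scale, as the liver label states. Exocrine pancreas markers averaged 7.27 to 10.25 on S534A LPS replicate 3 and WT LPS replicates 2 and 3, against 5.88 to 6.56 on the other arrays. Those 3 arrays were left out in an alternative given beside the results that it changed. In whole liver, fewer cells of a type and less RNA per cell cannot be told apart.

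The promoters of these genes are shown because NF-kB binds DNA at sites with a known consensus, and the 6 genes differ in whether the sequence next to their start holds it. Each window runs from 250 bases before a RefSeq start of the gene to 50 bases after it. It holds 300 bases read 5′ to 3′ along the gene (RefSeq, GRCm38.p6). For Tnip1, Birc3, Traf1 and Cyld the start used lies inside the gene bounds given further below. The 10-letter NF-kB consensus was searched on both strands, and so was GGANNNTCC, a shorter form chosen after the Tnfaip3 sequence was seen. Matches can overlap, and they are in capitals below. The Tnfaip3 window is chr10:19015361-19015660, Tnip1 chr11:54962891-54963190, Cyld chr8:88696778-88697077 and Birc3 chr9:7873121-7873420. Cyld lies on the plus strand and the others on the minus strand.
Tnfaip3: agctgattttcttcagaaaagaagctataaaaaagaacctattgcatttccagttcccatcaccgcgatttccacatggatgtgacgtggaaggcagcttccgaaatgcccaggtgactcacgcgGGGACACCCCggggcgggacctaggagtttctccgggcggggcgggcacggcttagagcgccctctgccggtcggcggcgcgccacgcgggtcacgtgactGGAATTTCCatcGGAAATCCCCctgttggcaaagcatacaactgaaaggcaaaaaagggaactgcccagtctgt
Tnip1: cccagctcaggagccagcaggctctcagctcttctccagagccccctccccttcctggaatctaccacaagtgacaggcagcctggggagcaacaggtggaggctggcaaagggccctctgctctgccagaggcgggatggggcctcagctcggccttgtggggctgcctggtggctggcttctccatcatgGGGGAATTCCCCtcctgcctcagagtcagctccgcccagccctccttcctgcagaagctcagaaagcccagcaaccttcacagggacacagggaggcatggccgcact
Cyld: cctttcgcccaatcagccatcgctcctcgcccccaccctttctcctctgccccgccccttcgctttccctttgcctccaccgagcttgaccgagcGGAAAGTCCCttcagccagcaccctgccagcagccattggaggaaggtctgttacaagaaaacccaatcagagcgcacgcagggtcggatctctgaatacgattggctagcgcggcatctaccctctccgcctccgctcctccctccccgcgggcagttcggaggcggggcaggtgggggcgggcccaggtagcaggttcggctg
Birc3: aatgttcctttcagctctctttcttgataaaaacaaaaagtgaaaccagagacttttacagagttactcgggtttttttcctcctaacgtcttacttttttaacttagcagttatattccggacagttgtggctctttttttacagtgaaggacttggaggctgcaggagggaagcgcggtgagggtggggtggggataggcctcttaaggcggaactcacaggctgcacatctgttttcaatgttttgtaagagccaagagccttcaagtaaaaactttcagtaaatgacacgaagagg

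The Tnfaip3 window held the consensus 12 to 3 bases and 125 to 116 bases before the start, with GGAATTTCC between them at 24 to 16 bases. Tnip1 held a symmetrical run, GGGGAATTCCCC, which matched the consensus in overlapping frames between 58 and 47 bases before the start. Cyld held GGAAAGTCCC between 155 and 146 bases before the start used, which matched both patterns. Because that start lies inside the gene bounds, this match spans the first base of the Cyld gene as listed (88696878). Neither pattern was found in the windows of Birc3, Traf1 and Zc3h12a, or in the window at the other RefSeq start of Tnfaip3. The consensus was thus present for 3 of the 6 genes. Over all genes in the RefSeq promoter table, 9.55% of 27025 had a window with the consensus, and 9.77% had GGANNNTCC. A match describes these letters only, and no binding was measured.

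The first comparison asked whether the p65 substitution changed these transcripts in LPS-treated livers. None of the 6 genes passed the threshold, an adjusted p under 0.05 in limma over all 19938 genes. In that comparison 0.166% of all genes were called higher in S534A livers and 0.00502% lower. At an unadjusted p under 0.05 there was 1 of the 6, Tnfaip3, beside 5.76% of all genes. All 6 point estimates were above 0, as were 52.9% of those of all genes, and their median log2 difference was 0.15 beside 0.01 over all genes.

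Tnfaip3 (probe set 10368144; chromosome 10, 19000910 to 19015410) was the one gene of the 6 whose genotypes did not overlap. It read 8.71, 9.15, 8.78 and 9.10 in S534A LPS livers, against 8.33, 8.43, 8.29 and 8.55 in WT LPS livers. All 4 S534A values lay above all 4 WT values, by 0.16 at the closest, and replicates 2 and 4 of the S534A group were the highest. Such a separation was seen for 3.25% of all genes. The means were 8.94 ± 0.22 and 8.40 ± 0.12 (SD, n = 4 each), a 1.45-fold higher level (log2 difference 0.54 ± 0.11, SE; 95% interval 0.31 to 0.76). It did not pass over all genes (limma adjusted p = 0.0787; unadjusted p = 0.000224). With array weights, which count arrays by how closely they follow their group, the difference was 0.57 and passed (limma adjusted p = 0.0107). The largest weights were those of WT LPS replicate 3 (2.63), an array with pancreas transcripts, and S534A LPS replicate 2 (2). For Tnfaip3 these were the lowest WT LPS array and the highest S534A LPS array. Without the 3 arrays with pancreas transcripts the Tnfaip3 difference was 0.55 and did not pass (limma adjusted p = 0.685).

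Neutrophil markers were also higher in S534A LPS livers than in WT LPS livers. The mean of the 5 markers (S100a8, S100a9, Retnlg, Ly6g and Csf3r) ran from 7.53 to 7.87 in S534A LPS livers. It ran from 6.97 to 7.35 in WT LPS livers, with no overlap, and 2 of the 5 were called higher in S534A. S534A LPS replicate 1, the lowest of its group for Tnfaip3, was the highest for these markers. In neither group did the arrays rank by Tnfaip3 as they did by the marker mean. Ranks of 4 arrays cannot decide how Tnfaip3 and these markers are related. With that mean as a covariate, a fit chosen after the data were seen, the Tnfaip3 difference read 0.56 ± 0.21 (SE; limma adjusted p = 1). The standard error was 0.21 in place of 0.11. Since the marker mean did not overlap between the genotypes, this fit cannot tell genotype and marker level apart. The part of neutrophils in the Tnfaip3 difference was not tested. Markers of T and NK cells averaged 5.82 to 6.01 in S534A LPS livers, against 5.79 to 5.95 in WT LPS livers, and 0 of 5 were called by limma. Kupffer cell markers averaged 8.81 to 9.07 in S534A LPS livers and 8.55 to 9.14 in WT LPS livers, again with 0 of 5 called.

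Tnip1 (probe set 10385941; chromosome 11, 54910787 to 54962956) read 8.91, 8.61, 8.65 and 8.48 in S534A LPS livers, against 8.58, 8.33, 8.41 and 8.39 in WT LPS livers. Of the S534A arrays 3 lay above the highest WT array and replicate 4 fell inside the WT range. The log2 difference was 0.24 ± 0.11 (SE; 95% interval 0.00 to 0.48; limma adjusted p = 0.886), and -0.04 ± 0.21 with the neutrophil covariate. Without S534A LPS replicate 1, the highest of the 8 arrays, it was 0.15.

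Birc3 (probe set 10590801; chromosome 9, 7847468 to 7873205) read 9.43, 9.19, 9.18 and 9.26 in S534A LPS livers and 9.10, 9.11, 9.24 and 8.93 in WT LPS livers. The groups overlapped through WT replicate 3, and the difference was 0.17 ± 0.08 (SE; 95% interval -0.01 to 0.35; limma adjusted p = 0.91). Without the 3 arrays with pancreas transcripts it was 0.28, and with the neutrophil covariate 0.07, neither of which passed. Birc3 has a neighbouring paralogue, Birc2, and probes shared with it were not separated here.

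The other 3 genes lay closer together between the genotypes. Zc3h12a (probe set 10516266; chromosome 4, 125118414 to 125127881) read 7.12, 7.13, 6.95 and 7.02 in S534A LPS livers, against 6.98, 6.93, 6.94 and 6.91 in WT LPS livers (difference 0.12, 95% interval -0.10 to 0.34). Cyld (probe set 10573803; chromosome 8, 88696878 to 88751946) read 8.42, 8.49, 8.56 and 8.47 in S534A LPS livers, against 8.49, 8.22, 8.52 and 8.42 in WT LPS livers (0.07, -0.16 to 0.30). WT replicate 2, one of the arrays with pancreas transcripts, was the lowest of the 8 LPS arrays for Cyld, and without it the Cyld difference was 0.01. Traf1 (probe set 10481949; chromosome 2, 34941750 to 34961812) read 5.51, 5.49, 5.44 and 5.49 in S534A LPS livers, against 5.48, 5.57, 5.42 and 5.43 in WT LPS livers (0.01, -0.11 to 0.13). The genotypes overlapped for all 3 genes, and limma gave each an adjusted p of 1. The Traf1 interval describes the reading of a probe set near the low end of the scale and sets no bound on the transcript.

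**Figure D1:**
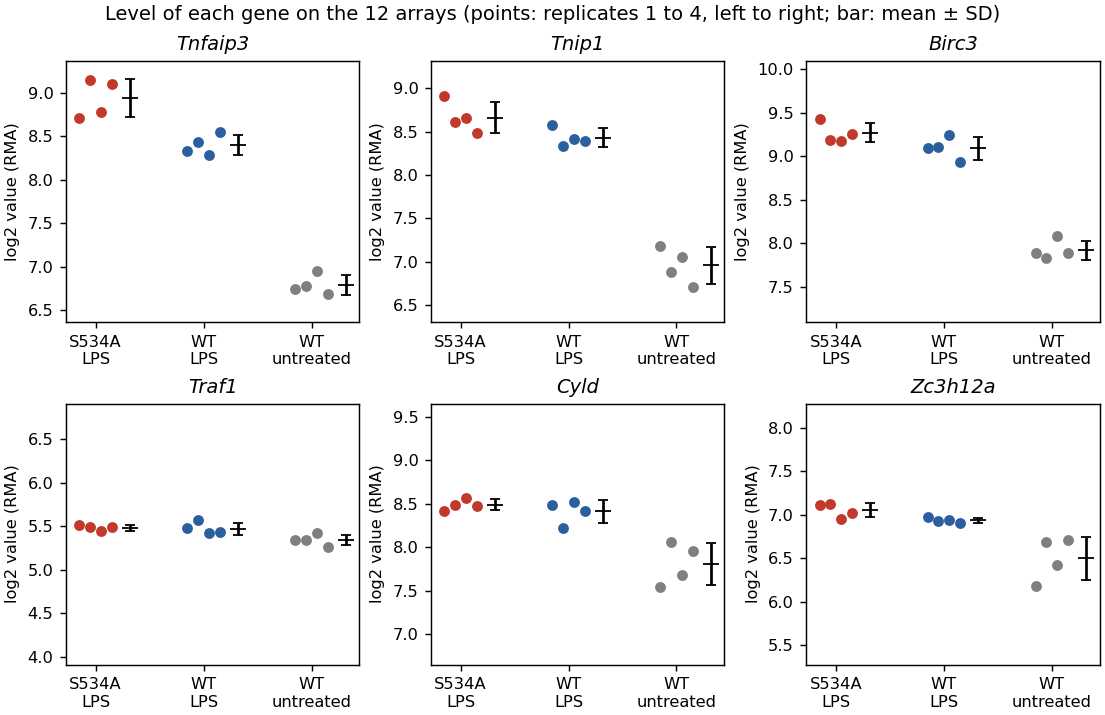
Log2 RMA values of the 6 genes on the 12 arrays, with points for replicates 1 to 4 of each group and a bar for the mean ± SD; every panel spans the same 3 log2 units, centred on its own gene. The LPS arrays stand above the untreated arrays in every panel, by 0.01 at the closest for Traf1, and Tnfaip3 is the gene whose S534A LPS values (8.71 to 9.15) lie wholly above its WT LPS values (8.29 to 8.55).

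The next comparison asked what LPS did to these genes in WT livers. Of the 6 genes 5 rose: Tnfaip3, Tnip1 and Birc3 by more than 2-fold, and Cyld and Zc3h12a by less. In that comparison 9.34% of all genes were called higher (limma, adjusted p under 0.05) and 15.6% lower. The median log2 difference of the 6 genes was 0.89, beside 0.02 over all genes. All 4 WT LPS arrays lay above all 4 untreated arrays for each of the 6, a separation seen for 9.78% of all genes.

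Among the 6 genes the A20 gene and that of its binding partner ABIN-1 had the highest estimates, which were not separated from each other by the test of pairs given later. Tnfaip3 read between 8.29 and 8.55 in WT LPS livers, as given above, against 6.74, 6.78, 6.95 and 6.69 in untreated livers. The nearest arrays of the groups were 1.34 apart, and the level was 3.05-fold higher after LPS (8.40 ± 0.12 against 6.79 ± 0.11, SD, n = 4 each; log2 difference 1.61 ± 0.11, SE; limma adjusted p = 1.86e-07). Tnip1 read 7.18, 6.88, 7.06 and 6.71 in untreated livers, and was 2.77-fold higher after LPS (1.47 ± 0.11, SE; limma adjusted p = 7.81e-07). The gap between the groups was 1.14 for Tnip1. Birc3 read 7.89, 7.83, 8.08 and 7.89 in untreated livers, and was 2.25-fold higher after LPS (1.17 ± 0.08, SE; limma adjusted p = 4.32e-07). Its groups were 0.85 apart.

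The second deubiquitinase gene, Cyld, rose less. It read 7.54, 8.06, 7.68 and 7.96 in untreated livers, and its mean was 8.41 ± 0.13 in WT LPS livers and 7.81 ± 0.24 in untreated livers (SD, n = 4 each). This is 1.52-fold (log2 difference 0.60 ± 0.11, SE; limma adjusted p = 0.00117). The Regnase-1 gene Zc3h12a read 6.18, 6.69, 6.42 and 6.71 in untreated livers, with means of 6.94 ± 0.03 in WT LPS livers and 6.50 ± 0.25 in untreated livers, or 1.36-fold (0.44 ± 0.10, SE; limma adjusted p = 0.00688). The untreated livers were the variable ones for Cyld and Zc3h12a, and the LPS livers lay close together. Without the 3 arrays with pancreas transcripts the Zc3h12a difference was again 0.44 but no longer passed (limma adjusted p = 0.0594).

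Traf1 did not pass. It read 5.34, 5.34, 5.42 and 5.26 in untreated livers, so that the highest untreated array lay 0.01 below the lowest WT LPS array (log2 difference 0.13 ± 0.06, SE; 95% interval 0.01 to 0.25; limma adjusted p = 0.0999). All 12 of its values, 5.26 to 5.57, were in the lower part of an array scale that ran from 3.43 to 14.48. TRAF1 is best known from activated lymphocytes. T and NK cell markers averaged 5.79 to 5.95 in WT LPS livers, against 5.79 to 5.84 in untreated livers, with 0 of 5 called by limma. B cell markers averaged 5.59 to 5.93 in WT LPS livers, against 5.95 to 6.14 in untreated livers, and 1 of 3 fell. Some of these markers read as low as Traf1, such as Klrb1c at 4.74 in both groups. The part of lymphocytes in the Traf1 reading was not tested.

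The sizes of these responses were compared between the genes in 15 pairs, each with an exact two-sided permutation test on the within-array difference of the pair (4 WT LPS against 4 untreated arrays, smallest possible p = 0.0286). After Benjamini-Hochberg adjustment over the 15 pairs 10 passed, each at adjusted p = 0.0429. Tnfaip3 responded more than Birc3 by 0.44, than Cyld by 1.01 and than Zc3h12a by 1.17. Tnip1 responded more than Cyld by 0.87 and than Zc3h12a by 1.03. Birc3 responded more than Cyld by 0.57 and than Zc3h12a by 0.73. The other 3 that passed set Tnfaip3, Tnip1 and Birc3 above Traf1, and no size is given for them because the Traf1 probe set read near the low end of the scale. Tnfaip3 and Tnip1 differed by 0.14 (exact p = 0.371), Tnip1 and Birc3 by 0.30 (exact p = 0.0857), and Cyld and Zc3h12a by 0.16 (exact p = 0.0857). The pairs of Traf1 with Cyld (exact p = 0.0857) and with Zc3h12a (exact p = 0.0571) did not pass either. These are differences between probe sets in log2 response, not in transcript number.

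**Figure D2:**
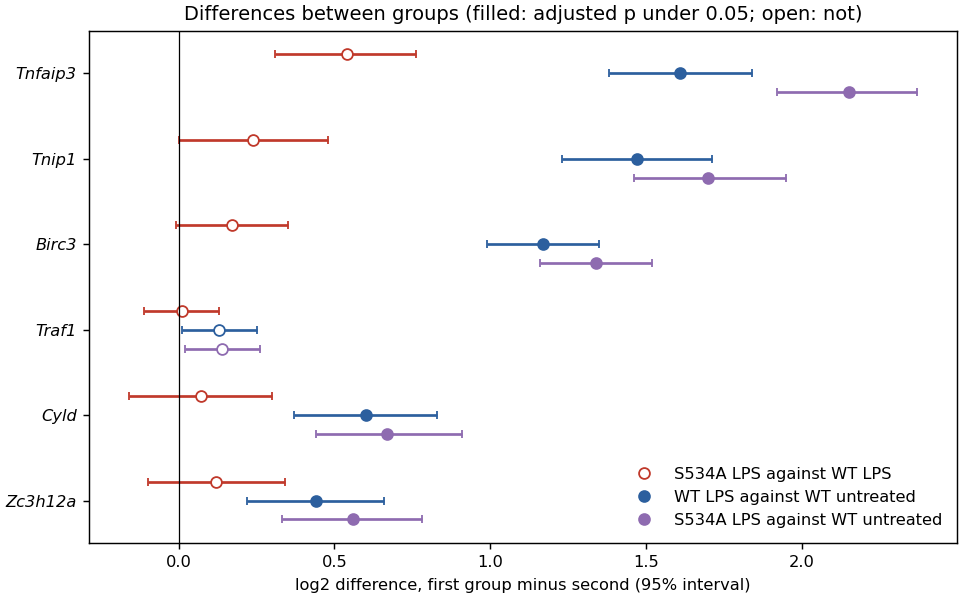
Log2 differences of the 6 genes with 95% intervals from limma, in the order S534A LPS against WT LPS, WT LPS against WT untreated and S534A LPS against WT untreated from top to bottom within each gene; filled points passed an adjusted p under 0.05. No genotype difference is filled, whereas the LPS differences are filled for every gene except Traf1 and run from 0.44 for Zc3h12a to 2.15 for Tnfaip3.

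S534A LPS livers were also set against untreated WT livers, a comparison that joins genotype with LPS and shares its untreated arrays with the WT comparison. The same 5 genes were called higher and Traf1 was not; 11% of all genes were called higher in this comparison and 16% lower (limma, adjusted p under 0.05). Tnfaip3 was 4.42-fold higher in S534A LPS than in untreated livers (log2 difference 2.15 ± 0.11, SE), Tnip1 3.26-fold (1.70 ± 0.11), Birc3 2.54-fold (1.34 ± 0.08), Cyld 1.59-fold (0.67 ± 0.11) and Zc3h12a 1.47-fold (0.56 ± 0.10). The adjusted p ran from 7.88e-09 for Tnfaip3 to 0.0012 for Zc3h12a. All 4 S534A LPS arrays lay above all 4 untreated arrays for each of the 6 genes, as they did for 13.8% of all genes. Traf1 differed by 0.14 ± 0.06 (SE; limma adjusted p = 0.0752), and without WT LPS replicate 2, which enters only the shared estimate of spread, it passed at 0.0443. For all 6 genes the group means thus ran in the order S534A LPS, WT LPS, WT untreated. The step between the first pair passed for none of them and was 0.01 for Traf1. Of all genes 52.9% had an estimate above 0 for that step, and the share with the whole order was not counted.

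Neutrophil markers rose after LPS as well, 5 of 5 in WT livers. Their mean ran from 7.53 to 7.87 in S534A LPS livers, from 6.97 to 7.35 in WT LPS livers and from 5.58 to 5.71 in untreated livers, the same order of groups as for Tnfaip3. Sinusoidal endothelial markers averaged 9.18 to 9.63 in WT LPS livers, against 9.73 to 10.01 in untreated livers, with 1 of 4 called higher (Lyve1) and 3 lower. Monocyte markers averaged 6.76 to 7.26 in WT LPS livers, against 5.92 to 6.04 in untreated livers, and 3 of 3 were called higher. Kupffer cell markers averaged 8.55 to 9.14 in WT LPS livers, against 8.93 to 9.28 in untreated livers. Of these 5 markers 1 was called higher (Marco) and 3 lower (Clec4f, Vsig4 and Cd5l). Stellate cell markers averaged 7.79 to 8.06 in WT LPS livers, against 8.49 to 8.64 in untreated livers, with 3 of 4 called lower. The part of these cell types in the responses of the 6 genes was not tested.

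The untreated livers fell into 2 pairs by their clock transcripts. Dbp, a clock-controlled transcription factor gene, read 11.19 and 11.39 in untreated replicates 2 and 4, against 8.14 and 7.59 in replicates 1 and 3. Arntl, which encodes the clock factor BMAL1 and peaks at the opposite phase, read 6.29 and 6.20 in replicates 2 and 4, against 9.03 and 9.08 in replicates 1 and 3. These clock genes were chosen after their values were seen. On the 8 LPS arrays Dbp stayed between 8.36 and 9.47 and Arntl between 7.37 and 8.83. Cyld and Zc3h12a were higher in the pair with high Dbp: Cyld read 8.06 and 7.96 in replicates 2 and 4, against 7.54 and 7.68 in replicates 1 and 3, and Zc3h12a read 6.69 and 6.71 in replicates 2 and 4, against 6.18 and 6.42 in replicates 1 and 3. Tnip1 went the other way, with 6.88 and 6.71 in replicates 2 and 4, against 7.18 and 7.06 in replicates 1 and 3. The pairs overlapped for Tnfaip3 and Traf1, and for Birc3 they touched, with replicates 1 and 4 both at 7.89. Counting Birc3, whose unrounded values did not overlap, the pairs were apart for 4 of the 6 genes, beside 56.2% of all genes, so that the share among the 6 was near that of all genes. With 2 livers in each pair these values are a description only.

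The LPS differences were also taken against each pair alone, in a split chosen after these values were seen, so that the sizes restate the spread of the untreated livers. The Cyld difference in WT livers was 0.40 ± 0.09 (SE) against untreated replicates 2 and 4 alone and 0.80 ± 0.09 against replicates 1 and 3 alone. Zc3h12a differed by 0.24 ± 0.07 against replicates 2 and 4 and by 0.64 ± 0.08 against replicates 1 and 3. Tnip1 differed by 1.63 against replicates 2 and 4 and by 1.31 against replicates 1 and 3. No p-value is given for differences against a pair, since the split was chosen after the values were seen. Tnfaip3 differed by 1.66 against replicates 2 and 4 and 1.55 against replicates 1 and 3.

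**Figure D3:**
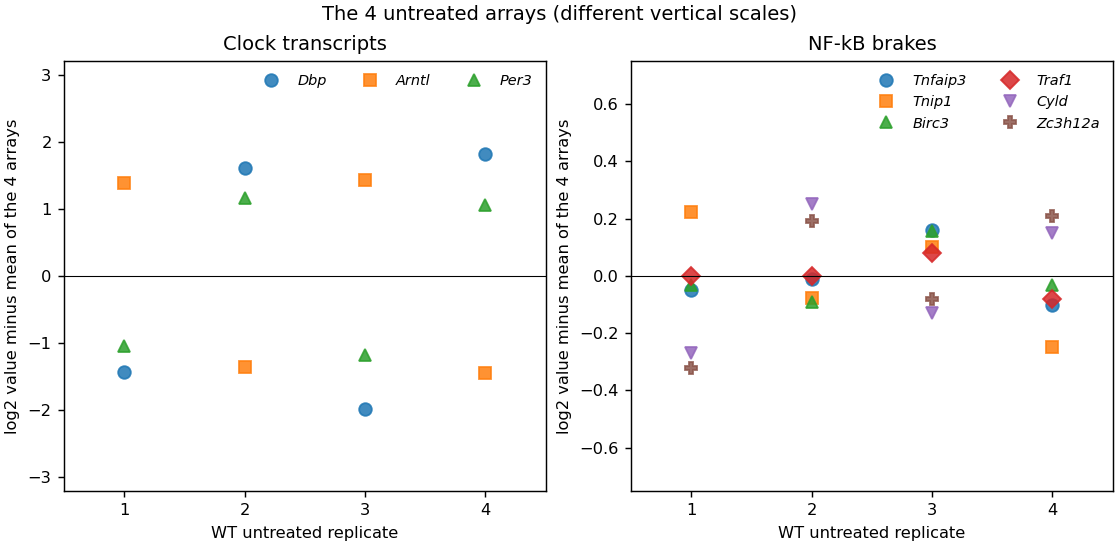
Values on the 4 untreated WT arrays, as log2 value minus the mean of the 4 arrays, for 3 clock transcripts (left) and the 6 NF-kB brakes (right, on a narrower vertical scale). Replicates 2 and 4 are high in Dbp and Per3 and low in Arntl, and the same arrays are high in Cyld and Zc3h12a and low in Tnip1.

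The other genes of the pathway were read from 5 lists with 75 genes, of which 69 had a probe set of their own. After LPS in WT livers 26 of the 69 rose and 6 fell (limma, adjusted p under 0.05), beside 25% of all genes called in either direction. Between the LPS-treated genotypes 2 were higher in S534A livers and 0 lower, beside 0.171% of all genes. That count of 2 ran from 0 to 4 when each array was left out in turn.

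Among 19 ubiquitin ligases and adaptors 9 rose and 2 fell after LPS in WT livers, with a median log2 difference of 0.21. Rnf31, the catalytic subunit of the complex that builds linear ubiquitin chains, rose by 1.61 ± 0.11 (SE). Birc2, which encodes cIAP1, the paralogue of cIAP2, rose by 1.46 ± 0.11, and probes it may share with Birc3 were not separated. Between the genotypes 0 of the 19 were called by limma, with a median of 0.06. The smallest p values were those of Peli1, a ubiquitin ligase of the Toll-like receptor pathway (0.45 ± 0.10, SE; adjusted p = 0.134), and the adaptor gene Traf5 (0.26 ± 0.07; adjusted p = 0.291).

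Of 14 other deubiquitinases and ubiquitin-binding brakes 4 rose and 2 fell after LPS (median 0.18). N4bp1, an endoribonuclease that binds ubiquitin and restrains NF-kB, read 10.69 ± 0.19 in WT LPS livers and 8.83 ± 0.28 in untreated livers (SD, n = 4 each), a rise of 1.86 ± 0.13 (SE). Tnip2, the ABIN-2 gene, rose by 0.81 ± 0.08. Between the genotypes 0 of 14 were called by limma (median 0.09). The smallest p values fell on both other ABIN genes: Tnip2 differed by 0.23 ± 0.08 and Tnip3 by 0.31 ± 0.11 (SE; adjusted p = 0.508 for each).

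Of 13 other regulators of messenger RNA decay 1 rose after LPS and 0 fell (median -0.09). This was Arid5a, whose product protects transcripts from Regnase-1 (0.90 ± 0.12, SE; adjusted p = 0.000131). Zfp36l1, which encodes an AU-rich element binding protein, had the next smallest p (-0.34 ± 0.13; adjusted p = 0.0742). The paralogues Zc3h12b, Zc3h12c and Zc3h12d did not pass, with differences between -0.22 and -0.01, so of these 4 Zc3h12a alone was called. Zc3h12b averaged 5.16 in WT LPS livers and 5.18 in untreated livers, near the low end of the scale as Traf1 was. The Zc3h12a call did not hold without the 3 arrays with pancreas transcripts. Between the genotypes 0 of 13 were called by limma (median 0.02). Zfp36l2 differed by -0.52 ± 0.13 (SE; adjusted p = 0.201) and Arid5a by 0.38 ± 0.12 (adjusted p = 0.433).

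Transcripts listed here as Regnase-1 targets went in both directions after LPS: of 12, 4 rose and 2 fell (median 0.21). The 2 that fell, named for that reason, were Calcrl (-0.61 ± 0.18, SE) and Icos (-0.50 ± 0.10). Whether each listed gene is a target of Regnase-1 was not checked. Lcn2, the gene of the iron-sequestering protein lipocalin-2, rose by 4.11 ± 0.31 (SE), from untreated values that varied with an SD of 0.88. Nfkbiz, an NF-kB cofactor gene, rose by 0.81 ± 0.11. Between the genotypes 0 of 12 were called by limma (median 0.02). Nfkbiz differed by 0.45 ± 0.11 (SE; adjusted p = 0.207) and Rel, which encodes the NF-kB subunit c-Rel, by 0.36 ± 0.10 (adjusted p = 0.251).

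The receptors and ligands upstream had the highest median of the 5 lists. Of 11 genes 8 rose and 0 fell after LPS in WT livers (median 0.98). The smallest p values were those of Tnf (2.27 ± 0.08, SE) and the Toll-like receptor adaptor gene Myd88 (1.98 ± 0.08). The largest rise of the list was that of Cd14, the LPS co-receptor gene, at 2.78 ± 0.17 (SE), a gene named after its value was seen. The 2 pathway genes called between the genotypes were both in this list. Il1b was higher in S534A LPS livers, 9.66 ± 0.25 against 8.58 ± 0.26 in WT LPS livers (SD, n = 4 each; difference 1.09 ± 0.15, SE; limma adjusted p = 0.0158). Cd40, a receptor that signals through TRAF proteins, read 9.29 ± 0.10 in S534A LPS livers against 8.76 ± 0.20 in WT LPS livers (0.53 ± 0.09; limma adjusted p = 0.0429). The Cd40 estimate was close to that of Tnfaip3 (0.54), which did not pass. Neither Il1b nor Cd40 was called without the 3 arrays with pancreas transcripts or with the neutrophil covariate.

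**Figure D4:**
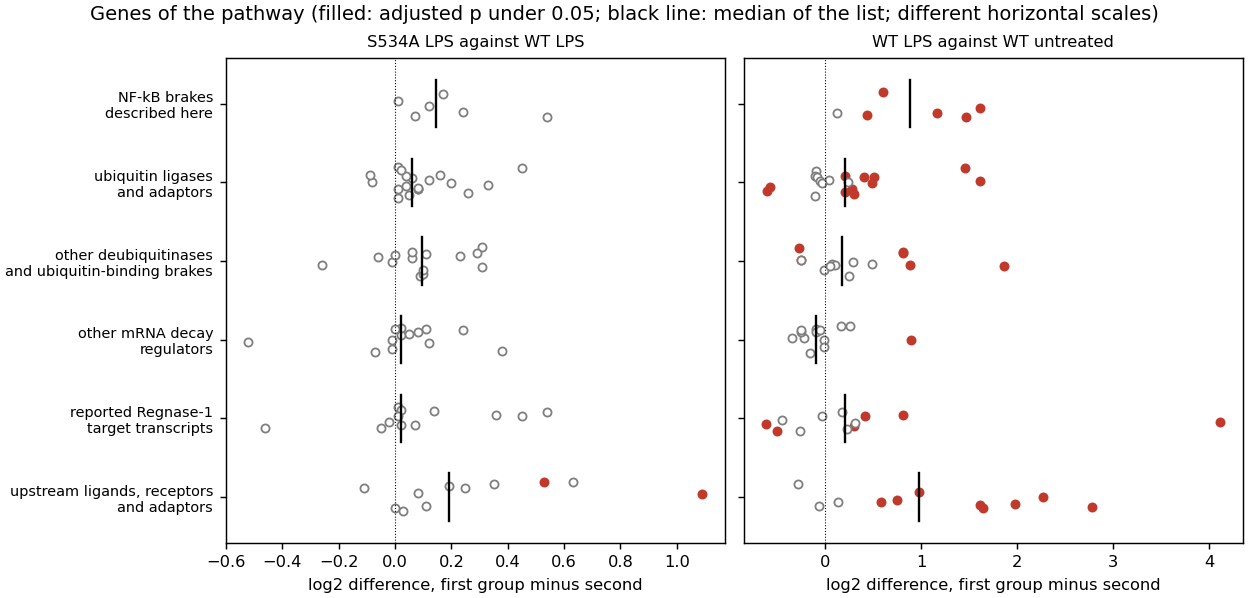
Log2 differences of the 6 NF-kB brakes and of 69 other pathway genes in 5 lists, for S534A LPS against WT LPS (left) and WT LPS against WT untreated (right, on a wider horizontal scale); filled points passed an adjusted p under 0.05 and black lines are list medians. The 2 filled points on the left are Il1b and Cd40, and on the right the median of the brakes (0.89) lies near that of the upstream genes (0.98) and above those of the other lists (-0.09 to 0.21).

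The genes whose pattern was most like each brake were found by the root mean square difference in log2 over the 12 arrays, each gene centred on its own mean. Genes named Gm with a number, or with Rik in the name, were left out of this search. The search was made for the 5 genes that rose after LPS. Nearest to Tnfaip3 were Katna1, the neutrophil gene S100a9 and Mid1, each at 0.15 where Tnfaip3 itself varied by 0.92. Between the genotypes Katna1 differed by 0.51, S100a9 by 0.52 and Mid1 by 0.48. After LPS in WT livers Katna1 differed by 1.74, S100a9 by 1.77 and Mid1 by 1.42. Nearest to Tnip1 were Lyve1, an endothelial receptor gene (0.11), the chemokine gene Ccl19 (0.13) and the glucose transporter gene Slc2a6 (0.14). Nearest to Birc3 were Pik3r5 and Tapbp, a gene of peptide loading onto MHC class I (0.09 each), and Hip1r (0.11). Cyld was most like Slc9a3r1 (0.08), Zfp598 and Marchf5 (0.09 each), and Zc3h12a most like Brpf1 (0.05), Mcur1 and Zfp598 (0.06 each). Zfp598 was the single gene named for more than 1 brake. None of the other 5 brakes was among the 3 nearest genes of any brake. With only 3 genes kept from the whole search, this says little about how alike the brakes are.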

How the data were processed

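RNA of 12 mouse liver samples was measured on 1 Affymetrix GeneChip array each. The deposited log2 values were made by the authors with RMA, per the submitters' processing notes. RMA corrects background, quantile normalises probes and summarises them per probe set. Neither its version nor a genome build is stated in the sources used. The values (35556 probe sets, 3.43 to 14.48) were used as deposited.

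Of the probe sets 21789 carried 1 gene symbol, 1621 several and 12146 none, and only the first kind was used. For 21698 of them the current symbol was taken from the GRCm38.p6 gene table by Entrez identifier. For genes with several probe sets the one with the highest mean was kept, giving 19938 genes, dim ones included. Coordinates and promoters are RefSeq, GRCm38.p6, and promoters were matched by symbol for all 6 genes.

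All 12 arrays entered 1 limma fit (version 3.58.1, R 4.3.3; lmFit and eBayes), two-sided, with Benjamini-Hochberg adjustment over all genes and a threshold of 0.05. The procedure was tested on simulated data. Errors are limma's SE, or the SD of 4 arrays. The labels do not state that each liver came from a separate animal, so the spread behind each p-value may be partly technical, and the number of arrays limits precision. Named pathway genes are the 2 with the smallest p of each list in the first 2 comparisons, plus those said to be chosen otherwise. The genes and lists were chosen with earlier results of these data known. Replicate numbers come from the titles.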

Additional observations from a re-analysis of the deposited data

Results flagged for a closer look

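In groups of 4 arrays, a value was picked out when its gap to the nearest array was a larger share of its group's range than Dixon's 95% critical value. No such value was found among the 18 groups of the 6 brakes. Over those and the groups of the 17 named pathway genes, 2 of 69 groups held one, where chance gives about 1 in 20. Rel read 7.39 on WT LPS replicate 2, against 7.76 to 7.81 on the other WT LPS arrays. That array is among the 3 with pancreas transcripts. Myd88 read 10.07 on untreated replicate 4, against 9.77 to 9.80 on the other untreated arrays.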

How the results depend on the processing

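The differences of the 6 genes in the 3 comparisons were recomputed under up to 25 alternatives, in 441 values. Of these, 435 kept their direction and their side of the threshold. Tnfaip3 between the genotypes passed with array weights, Traf1 in S534A LPS against untreated livers passed without WT LPS replicate 2, and Zc3h12a after LPS in WT livers did not pass without the 3 arrays with pancreas transcripts. The genotype difference of Traf1 ran from -0.01 (without WT LPS replicate 3 or 4) to 0.04 when each array was left out, and that of Tnip1 to -0.04 with the neutrophil covariate. None of these was called either way, and the causes were not tested. The genotype difference of Tnfaip3 stayed between 0.47 and 0.61 under all alternatives, with adjusted p from 0.0107 to 1. The number of the 6 genes called between the genotypes was 0 under each alternative except array weights (1). It was 4 to 5 in WT LPS against untreated livers and 5 to 6 in S534A LPS against untreated livers. The dim-gene filter left Traf1 out.

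The number of pathway genes called between the genotypes, 2, changed with the processing: it ran from 0 to 4 when each array was left out in turn. It was 1 with a replicate block, 1 with only the 8 arrays compared, 1 with median centring, 1 with eBayes trend and robust settings, and 10 with array weights. It was 0 without the 3 arrays with pancreas transcripts, 0 at an adjusted p under 0.01 and 0 with the neutrophil covariate. With the replicate block no call of the 6 genes changed. The numbers of the titles were treated as names only. Deviations of same-numbered arrays from their group means correlated above 0.1 in 0 of 4 pairs between the LPS groups (-0.225 to 0.064). Between WT LPS and untreated livers 1 of 4 did (-0.268 to 0.215). Between S534A LPS and untreated livers 0 of 4 did (-0.267 to 0.056). So few pairs cannot settle whether the numbers mark a pairing. Traf1 read near the low end of the scale, where signal over background, which was not measured here, limits what a reading shows.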
